A study of Mus musculus with 4 samples.

Results

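Small resting pre-B cells are the non-dividing precursors of the B lineage in bone marrow, in which a complete heavy chain has been made and the light chain genes are being joined. They follow large cycling pre-B cells, in which the heavy chain signals together with the surrogate light chain made by Vpreb1, Vpreb2 and Igll1. When that signal and signalling through the IL-7 receptor fade, the cells leave the cycle, Rag1 and Rag2 cut the kappa and then the lambda light chain genes, and a cell with a working light chain goes on to become an immature B cell that displays IgM. Tlr9, the gene disrupted in 2 of the 4 mice studied, encodes an endosomal receptor for DNA rich in unmethylated CpG and is best known in mature B cells and plasmacytoid dendritic cells.

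The cells were bone marrow mononuclear cells of C57BL6/J mice, 2 with the genotype TLR9-/- and 2 wild type (WT). There was 1 library per mouse from the 5′ ends of transcripts, with unique molecular identifiers (UMIs) to count molecules. The paper describes the isolation of such cells for other assays, with Ficoll separation and, for osteoclasts, after overnight culture with M-CSF. Whether the sequenced cells were cultured is not stated there. No treatment of these mice is described, and their age is not stated in the sources used here. Mice of the 2 genotypes were bred in separate cages, so that genotype and cage cannot be told apart. The disrupted allele is not restricted to a cell type. The mice were studied in 2 experiments with 1 of either genotype in each, and whether the library numbers 1 and 2 stand for these is not stated in the labels. Of 40545 barcodes in the files, 39167 passed the limits of 200 to 10000 genes and at most 10% mitochondrial UMIs. A cell was taken as a small resting pre-B cell when it held at least 2 UMIs of Cd79a and Cd79b together, at least 1 UMI of Vpreb3 and Rag1 together, at most 1 UMI of Vpreb1 and Igll1 together, and 0 UMIs of each of the cycle genes Mki67, Top2a, Pclaf and Birc5, the maturity genes Ms4a1, Ighd, H2-Aa, H2-Ab1 and H2-Eb1, and Siglech of plasmacytoid dendritic cells. This rule took 2818 cells, of which the TLR9-/- libraries gave 748 (number 1) and 306 (number 2) and the WT libraries 1073 and 691. The levels of these 16 genes chose the cells and are given only as a description.

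These were small libraries of molecules. TLR9-/- members held 812108 and 487272 UMIs and WT members 1002391 and 886139, and the median member held 902 and 1389.5 UMIs against 836 and 1163. Libraries numbered 2 were therefore deeper per cell in both genotypes. Because a cell with few UMIs meets a condition of 0 UMIs more easily, cells were also thinned at random to 800 UMIs each for shares of cells with a UMI, given as thinned, which left out 265 and 16 of the TLR9-/- members and 470 and 86 of the WT members. Members with exactly 1 UMI of Vpreb3 and Rag1, just inside the rule, numbered 38, 2, 35 and 21 in the libraries in the order given, and cells with 0 that met the other conditions, just outside it, numbered 30, 20, 30 and 23. Between 112 and 185 barcodes were shared by any pair of libraries, of which at most 1 was a member in both. Neither pair of libraries of a genotype was a copy, since their summed UMIs differed by 7.85 and 10.1 times sampling noise (chi-square per degree of freedom). Doublets were not called. Members with more than 3 times the median UMIs of their library were left out as an alternative instead.

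The label markers that the rule left free, Dnajc7, Arl5c and Ebf1, were drawn from these same data. Their levels describe the members and do not test the label. Cells with Ighd UMIs are drawn in the figure but are not described here. Dnajc7, a co-chaperone of the heat shock proteins, stood at 4805 and 4566 CPM (the UMIs of a gene in each 1000000 UMIs of the class in a library) in the TLR9-/- members and 4580 and 4362 CPM in the WT members. It was between 625 and 1027 CPM in surrogate light chain cells, defined here by at least 2 UMIs of Vpreb1 and Igll1 and 0 of the cycle genes. It was between 356 and 691 CPM in cycling pre-B cells, with at least 2 UMIs of the cycle genes and 1 of Vpreb3, Rag1, Vpreb1 or Igll1, and between 558 and 783 CPM in Ms4a1 cells, which hold Ms4a1 but no Ighd. No library of any of these classes came near the members. Arl5c, which encodes a small GTPase of the ARF-like family, was at 999, 1182, 981 and 788 CPM in the members of the 4 libraries and at most 589 CPM in a library of the other 3 classes. Ebf1, the transcription factor that commits cells to the B lineage, was at 5280, 4256, 5956 and 3343 CPM in the members, but at 5183, 3914, 5152 and 3774 CPM in surrogate light chain cells, so that it set the members apart from the later and the cycling cells and not from the earlier ones. Vpreb3, a pre-B cell receptor chaperone used by the rule, had a UMI in 99.1% to 99.7% of the members, and Rag1 in 21.4% and 39.5% of the TLR9-/- and 24.3% and 32.4% of the WT members. Nearly all members thus entered through Vpreb3. The genome positions are those of GENCODE M21 on GRCm38, on which Dnajc7 (ENSMUSG00000014195) lies at chr11:100582818-100620168 on the minus strand, Arl5c (ENSMUSG00000038352) at chr11:97989578-97996181 on the minus strand and Ebf1 (ENSMUSG00000057098) at chr11:44617317-45008091 on the plus strand.

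**Figure D1:**
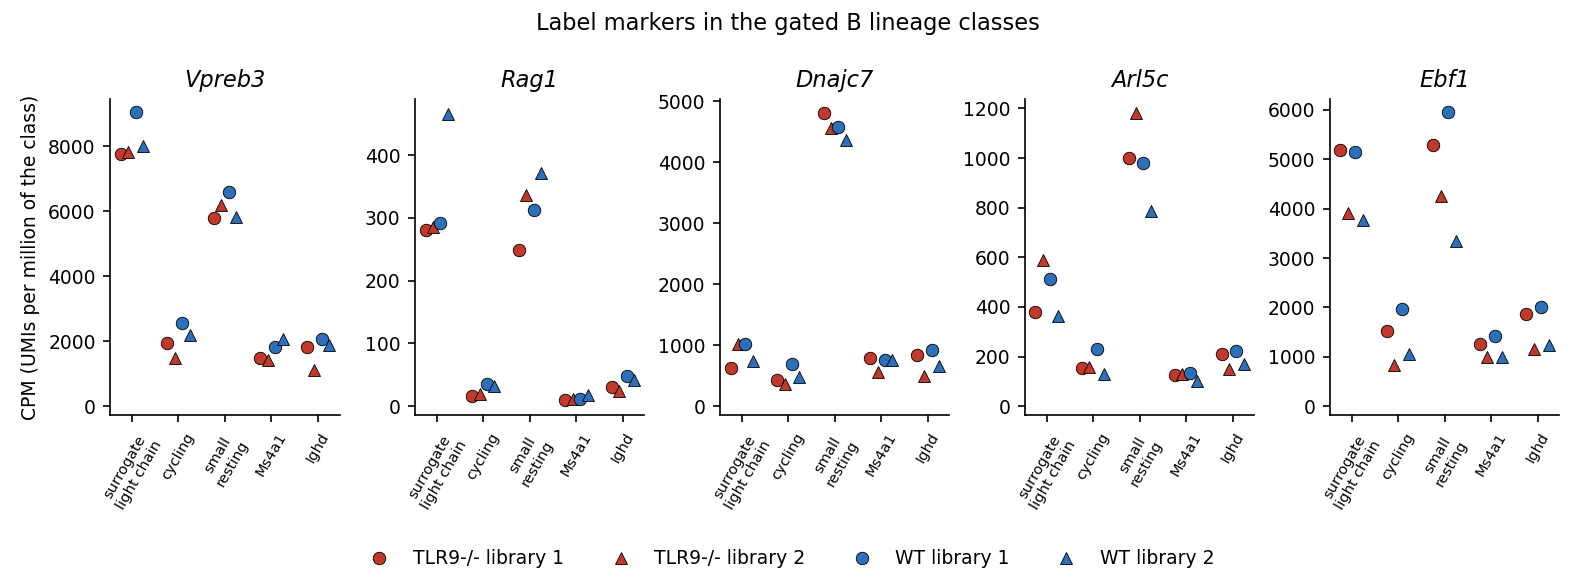
Levels of Vpreb3, Rag1, Dnajc7, Arl5c and Ebf1 in unscaled CPM of each B lineage class in each library, with red for TLR9-/- and blue for WT, circles for libraries numbered 1 and triangles for libraries numbered 2. Dnajc7 sits between 4362 and 4805 in the small resting class and at 1027 or lower in the surrogate light chain, cycling and Ms4a1 classes.

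The promoters of the marker genes are shown because those genes define or mark the cells, each as the 300 bases from 250 before to 50 after the start of the RefSeq entry on GRCm38.p6, read 5′ to 3′ on the strand of the gene. Capitals mark the E-box CAGNTG, a word bound by E2A proteins, and GGAAGTG, a word of ETS family factors, on either strand. The Vpreb3 entry is chr10:75948050-75948349 on the plus strand, the Rag1 entry chr2:101649483-101649782 on the minus strand and the first of the Dnajc7 entries chr11:100619578-100619877 on the minus strand.
Vpreb3: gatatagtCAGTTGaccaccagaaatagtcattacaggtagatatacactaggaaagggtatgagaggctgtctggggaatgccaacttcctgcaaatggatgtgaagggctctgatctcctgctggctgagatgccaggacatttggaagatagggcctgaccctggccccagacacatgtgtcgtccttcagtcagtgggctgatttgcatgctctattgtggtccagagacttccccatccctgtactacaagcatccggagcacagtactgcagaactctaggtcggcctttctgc
Rag1: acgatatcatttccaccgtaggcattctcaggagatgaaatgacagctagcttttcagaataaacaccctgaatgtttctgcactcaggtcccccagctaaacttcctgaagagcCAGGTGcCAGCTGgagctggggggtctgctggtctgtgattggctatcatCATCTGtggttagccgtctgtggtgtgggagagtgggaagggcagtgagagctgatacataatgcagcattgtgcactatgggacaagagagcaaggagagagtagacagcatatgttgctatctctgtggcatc
Dnajc7: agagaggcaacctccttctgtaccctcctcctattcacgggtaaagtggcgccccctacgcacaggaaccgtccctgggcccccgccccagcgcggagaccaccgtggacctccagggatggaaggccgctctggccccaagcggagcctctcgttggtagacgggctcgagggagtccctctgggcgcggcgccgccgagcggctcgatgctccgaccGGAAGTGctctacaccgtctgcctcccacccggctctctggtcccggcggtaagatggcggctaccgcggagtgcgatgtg
One E-box word was found for Vpreb3, 3 for Rag1 and 0 for this Dnajc7 entry, which held 1 ETS word. Of 32851 promoters of this length, 51.4% held the E-box word, 11.004% the ETS word and 13.7% the EBF word CCCNNGGG, which none of these 3 held. A match describes the letters and is not a measured binding site.

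The classes before, beside and after the small resting cells were compared within each mouse, with UMIs summed per library and class, edgeR's quasi-likelihood test with the library as a block, and Benjamini-Hochberg adjustment over all genes tested. All classes were drawn by UMIs of the same cells, so that the numbers of genes called describe the gates, and log2 fold changes are given with standard errors (SE) and without a p. Against the 807 surrogate light chain cells, 1966 of 6689 genes outside the rule were called (29.4%), 925 higher (13.8%) and 1041 lower (15.6%) in the small resting cells, and 1307 without the WT library numbered 2. Against 3473 cycling pre-B cells 5772 of 10136 were called (56.9%), 2790 higher (27.5%) and 2982 lower (29.4%), and against 2618 Ms4a1 cells 3712 of 8935 (41.5%), 1687 higher (18.9%) and 2025 lower (22.7%).

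Vpreb2, Dntt and several genes with few or no UMIs in the members were furthest below their levels in surrogate light chain cells, a class that was itself drawn by Vpreb1 and Igll1. Vpreb2, the other VpreB chain of the surrogate light chain and no part of the rule, was at 2.02 ± 0.684 CPM against 644 ± 95.6 CPM (SD, n = 4 libraries; CPM after TMM scaling within the comparison), a log2 fold change of −8.23 (SE 0.20). Dntt, the terminal transferase that adds bases at heavy chain joints, was at 16.9 ± 24.1 against 909 ± 125 CPM (−6.12, SE 0.39), and its UMIs lay in at most 1.31% of the members of any library but in 60.7% to 72.9% of surrogate light chain cells, and after thinning in at most 1.03% and in 46.9% to 56.2%. Arpp21, a cAMP-regulated phosphoprotein gene, was at 1.31 ± 1.92 against 194 ± 27.7 CPM, and Grb7, which encodes an adaptor, at 0.772 ± 0.976 against 173 ± 94.5 CPM. Fxyd6 and Ttll11 were at 0 CPM in the members of every library, and Parvb and Tmem91 were at 0.772 and 1.63 CPM on average. Rag2, the partner of Rag1, was also lower in the small resting cells, at 60.8 ± 20.03 against 163 ± 16.3 CPM (−1.35, SE 0.19). Hence the recombinase gene outside the rule was not highest at this stage.

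Higher in the small resting than in the surrogate light chain cells were immunoglobulin genes, Cd74 and several B lineage regulators and receptors. By fold change alone, kappa V genes, Ighv1-81 and Igha led, but a few members carried the last 2. Igha had 4417, 2, 618 and 2109 UMIs in the members and 4, 2, 7 and 1 without the members that held at least 10 UMIs of Jchain and Igha, and Ighv1-81 in the TLR9-/- library numbered 1 had 2728 UMIs and 31 without them. Cd74, the invariant chain of MHC class II, was at 850 ± 138 against 96.2 ± 51.9 CPM (3.19, SE 0.19), although the rule removed every cell with an H2-Aa, H2-Ab1 or H2-Eb1 UMI. Of the 4 tested genes of the class II list outside the rule, Cd74 included, 1 was called higher and 2 lower, with a median of −0.55. Ighm, the constant region of the mu heavy chain, was at 3999 ± 907 against 1340 ± 221 CPM (1.57, SE 0.07). Spib, an ETS family transcription factor gene, differed by 2.40 (SE 0.17), and Bach2, a repressor that guards against premature activation, by 1.62 (SE 0.13). The antiproliferative genes Btg1 and Btg2 were higher by 2.03 (SE 0.14) and 1.36 (SE 0.10). Il7r, the IL-7 receptor alpha chain, was at 472 ± 157 against 219 ± 42.9 CPM (1.10, SE 0.13) and Cxcr4, the receptor that holds cells in the marrow niche, at 353 ± 66.1 against 174 ± 47.5 CPM (1.02, SE 0.12). Tnfrsf13b and Tnfrsf13c, receptors for the survival factors BAFF and APRIL, differed by 1.47 (SE 0.15) and 1.74 (SE 0.22). Of the 27 B lineage transcription factors of a fixed list, 15 were called higher and 5 lower, with a median log2 fold change of 0.48 beside 0.02 over all genes tested. Of the Toll-like receptor signalling genes, 9 of the 18 tested were called higher and 0 lower. Both counts stand beside 13.8% of all genes called higher and 15.6% called lower, and describe the gates. Of the markers of other cells, 4 of 5 plasma cell genes tested were called higher and 1 lower (median 3.04), 3 of 4 mature B cell genes higher (median 2.34), 5 of 6 erythroid genes higher (median 1.28), 2 of 3 plasmacytoid dendritic cell genes higher and 1 lower, 1 of 4 monocyte genes higher and 1 lower, and 0 of 8 neutrophil and 0 of 2 T and NK cell genes. The part of such RNA in the differences was not tested.

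Rag2 and Il7r were higher in the small resting cells than in the later Ms4a1 cells, and Cd74 was lower. Rag2 was at 57.1 ± 18.7 CPM in the small resting cells and 4.28 ± 2.63 CPM in Ms4a1 cells (3.68, SE 0.23), and Il7r at 444 ± 148 and 41.8 ± 22.7 CPM (3.46, SE 0.17). Of the 13 tested genes of the list for V(D)J recombination and end joining, 5 were called higher and 1 lower, beside 18.9% and 22.7% of all genes, with a median of −0.04 beside 0.01. Uchl1, a ubiquitin hydrolase, Capsl, a calcium-binding protein gene, and Slc12a3, a cotransporter gene, were higher in the small resting cells by 3.69 (SE 0.18), 3.61 (SE 0.16) and 3.54 (SE 0.16), and Bach2 by 2.28 (SE 0.10). All 7 MHC class II genes of the list outside the rule were called lower in the small resting cells, led by H2-DMb2 (−4.49, SE 0.21) and with Cd74 at 798 ± 128 against 8810 ± 1502 CPM (−3.46, SE 0.14), beside 22.7% of all genes. The rule removed members with UMIs of the 3 class II genes H2-Aa, H2-Ab1 and H2-Eb1 and the Ms4a1 class was not filtered on them, so this count describes the gates. Fcer2a, the low affinity IgE receptor CD23 of mature B cells, had 1 UMI in all members together and was at 60.6 ± 17.8 CPM in Ms4a1 cells. Lower too were the neutrophil granule genes Elane, Mpo and Ctsg, by −4.61 (SE 0.33), −4.56 (SE 0.36) and −4.46 (SE 0.25), and the cycle genes Rrm2 and Cdca3. Of the markers of other cells, 5 of 5 monocyte genes (median −1.80), 3 of 8 neutrophil genes, 5 of 6 mature B cell genes (median −1.11) and 2 of 7 erythroid genes were called lower in the small resting cells and 0 of them higher, with 1 of 4 T and NK cell genes, 2 of 5 plasma cell genes and 1 of 3 plasmacytoid dendritic cell genes higher and 1, 1 and 2 lower. The part of such RNA in the differences from this class was not tested.

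The cycle genes outside the rule were lower than in the cycling and Ms4a1 classes, a direction that the gates favour, since cycling cells were drawn by cycle UMIs and Ms4a1 cells were not filtered on them. All 30 cycle genes of the list outside the rule were called lower than in cycling pre-B cells, with a median of −4.61 beside 0.02 over all genes tested, and all 30 were also called lower than in Ms4a1 cells, with a median of −3.14. Against surrogate light chain cells, which like the members held 0 UMIs of the 4 gated cycle genes, 12 of the list could be tested and 1 was called higher and 5 lower, with a median of −0.60, beside 13.8% and 15.6% of all genes. Sgo2a, a guardian of sister chromatid cohesion, was at 0.267 ± 0.533 against 67.2 ± 11.4 CPM, the cyclin gene Ccnf at 0.295 ± 0.590 against 55.9 ± 7.90 CPM, the condensin subunit gene Ncapg at 0.562 ± 0.650 against 76.5 ± 12.98 CPM and the histone chaperone gene Asf1b at 1.25 ± 1.55 against 113 ± 12.1 CPM. In the other direction Btg1 and Btg2 were higher than in cycling cells by 2.86 (SE 0.13) and 2.61 (SE 0.15), and 14 of the 25 Toll-like receptor signalling genes, 20 of the 31 interferon-stimulated genes and 12 of the 15 AP-1 and early response genes tested were called higher, beside 27.5% of all genes. All 9 heat shock chaperones tested were called lower, beside 29.4% of all genes, Dnajc7 not being among the chaperones of that list. Markers of other cells differed from the cycling class too, with 4 of 5 monocyte genes called lower, 4 of 8 neutrophil genes lower and 1 higher, 4 of 6 T and NK cell genes higher and 1 lower, 3 of 4 mature B cell genes higher, 2 of 7 erythroid genes higher and 2 lower, and 1 each of 5 plasma cell and 4 plasmacytoid dendritic cell genes higher. The part of such RNA in these differences was not tested.

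Light chain genes were transcribed in most members, and to very different extents. Kappa UMIs, counted over Igkc, Igkj and Igkv genes, lay in 87.7% and 85.3% of the TLR9-/- members and 87.2% and 86.5% of the WT members. Myeloid cells with at least 3 UMIs of Lyz2 and 0 of Cd79a and Cd79b, which should lack the transcripts, had one in 7.89%, 3.29%, 7.20% and 7.54% of the cells at median depths of 4345, 4360, 3100 and 3621 UMIs. Thinned to 800 UMIs, the shares were 89.2%, 82.4%, 88.9% and 82.6% of the members, 18.8%, 25.0%, 16.7% and 15.2% of surrogate light chain cells, and at most 2.93% of the myeloid cells. The members therefore lay far above both, and close to Ms4a1 cells at 88.1% to 91.8%. Within the members, 12.3%, 14.7%, 12.8% and 13.5% had 0 kappa UMIs, 40.8%, 36.6%, 37.0% and 37.3% had 5 to 19, and 12.3%, 18.6%, 8.29% and 8.97% had 20 or more. Lambda UMIs lay in 49.3%, 56.2%, 44.1% and 50.9% of the thinned members, against 86.7%, 86.3%, 81.9% and 79.8% of thinned Ms4a1 cells. Rag2, the recombinase gene outside the rule, had a UMI in 3.52%, 3.45%, 4.81% and 5.79% of the thinned members, in 13.4%, 20.3%, 12.4% and 14.7% of thinned surrogate light chain cells and in at most 0.682% of thinned Ms4a1 cells of a library.

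The kappa share was 85.8% ± 4.82 in TLR9-/- and 85.8% ± 4.42 in WT thinned members (SD, n = 2 libraries per genotype; exact two-sided permutation test, p = 1, adjusted 1 over 5 shares), and the libraries overlapped. With 2 libraries against 2 this test cannot give a p below 0.333, so that it could not call any share different. Shares with Rag1, a gene of the rule, are not compared. Heavy chain V genes had a UMI in 38.7% and 49.0% of the thinned TLR9-/- members and in 22.1% and 17.2% of the WT members (exact permutation p = 0.333, adjusted 0.833). The genotypes did not overlap in this share, and the same was true of thinned Ms4a1 cells (36.0% and 48.5% against 31.5% and 23.7%) and Ighd cells (28.2% and 41.3% against 22.9% and 17.8%) and cycling cells (15.9% and 19.2% against 15.3% and 8.79%). In surrogate light chain cells the genotypes overlapped (8.06% and 10.9% against 13.5% and 9.22%). Il7r had a UMI in 28.6% and 27.2% of the thinned TLR9-/- members and in 38.3% and 29.1% of the WT members, without overlap (exact permutation p = 0.333, adjusted 0.833), but in the members before thinning the genotypes overlapped (33.0% and 37.9% against 41.2% and 35.9%). Many heavy V genes resemble one another, and the assignment of their reads to single genes is uncertain. The share counts a UMI of any heavy V gene.

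**Figure D2:**
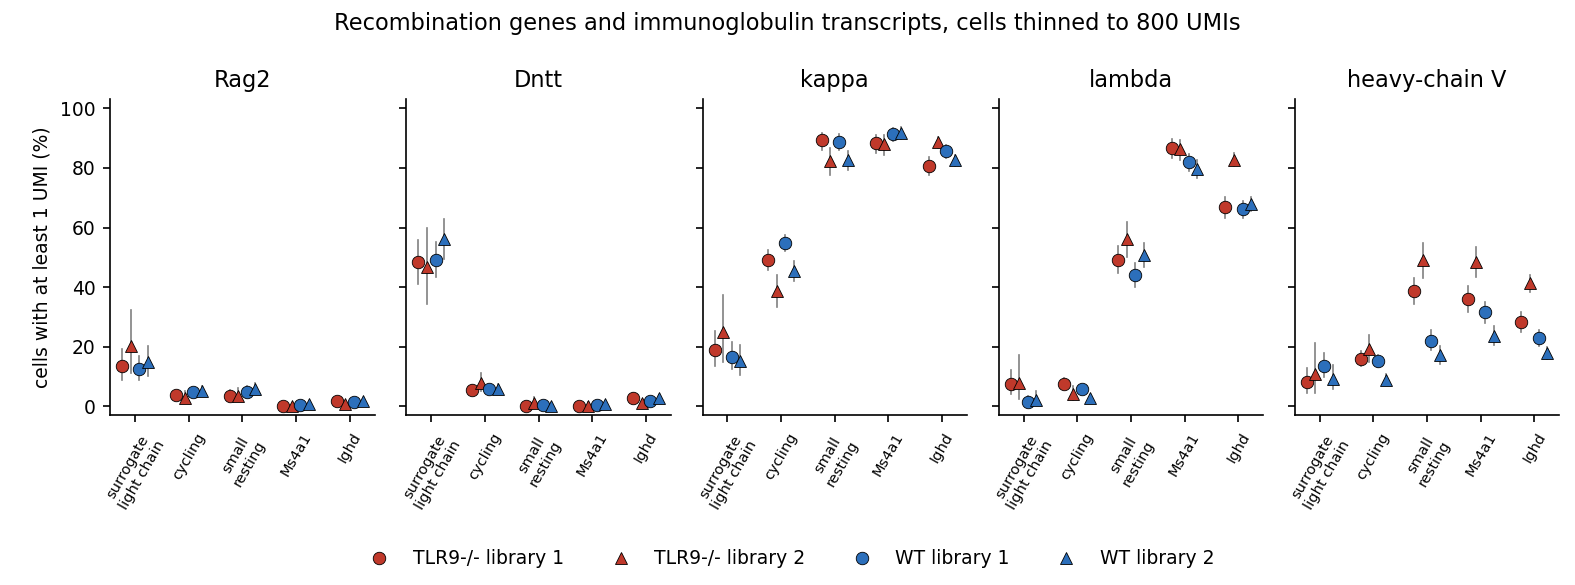
Percent of cells thinned to 800 UMIs with a UMI of Rag2, Dntt or the named immunoglobulin genes, by B lineage class, 1 point per library with its exact 95% binomial interval, red for TLR9-/- and blue for WT. Kappa shares of the small resting class lie between 82.4% and 89.2%, and heavy V shares of its TLR9-/- libraries (38.7% and 49.0%) lie above those of its WT libraries (22.1% and 17.2%).

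In 3 of the 4 libraries a few members held a large part of the kappa UMIs. Members with at least 10 UMIs of Jchain, which joins secreted IgA and IgM, and Igha, the alpha constant region, numbered 6, 0, 1 and 2, and they held 70.0%, 0%, 46.9% and 67.7% of all kappa UMIs of the members. Igkc was at 5251, 1726, 2686 and 4995 CPM with them and at 1957, 1726, 2053 and 2299 CPM without them, while Ighm was at 3041, 3981, 3342 and 5029 CPM with them and at 3211, 3981, 3385 and 5198 CPM without them. The summed level of Igkc thus depended on these members in the 3 libraries that had them, whereas the shares above count each cell once.

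Members with kappa UMIs were compared with members without, to see what else differed at light chain expression. Kappa-high members, with at least 2 kappa UMIs, numbered 586, 221, 798 and 526 and kappa-negative members 92, 45, 137 and 93, and the former were deeper, at medians of 917, 1451, 867.5 and 1223.5 UMIs against 745.5, 1085, 715 and 1010. The part of depth in the differences was not tested. Leaving immunoglobulin genes out, 24 of 4196 genes were called (0.572%), 13 higher (0.31%) and 11 lower (0.262%) in kappa-high members. Cd74 rose from 544 ± 114 to 1021 ± 162 CPM (SD, n = 4 libraries; log2 fold change 0.91, SE 0.12, adjusted p = 6.63e-05), with no overlap between the classes. The members with at least 10 UMIs of Jchain and Igha were not left out here, and their part in the differences was not tested. Without them the Cd74 UMIs of all members were 592, 318, 882 and 622 in place of 690, 318, 893 and 767. Cd72, a coreceptor that dampens B cell receptor signals, rose from 636 ± 184 to 1098 ± 112 CPM (0.81, SE 0.12, adjusted p = 0.000304), and Ptpn6, the phosphatase SHP-1 recruited by it, from 93.8 ± 34.5 to 242 ± 35.1 CPM (1.37, SE 0.24, adjusted p = 0.00143). Cd52, a surface glycoprotein gene, Rac2, a GTPase of blood cells, and the myosin light chain gene Myl4 rose by 0.72 (SE 0.10), 0.69 (SE 0.11) and 0.79 (SE 0.14). Jchain and the neutrophil gene Retnlg (1.65) were called as well, but their levels overlapped between the classes. Of the 8 neutrophil markers, 7 had positive values and 6 an unadjusted p under 0.05, with Retnlg the 1 called and a median of 1.12 beside −0.0069 over all genes. Of 5 erythroid markers 4 were positive, each with an unadjusted p under 0.05 and 0 called, with a median of 0.88. The part of such RNA in these differences was not tested.

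Among the genes lower in kappa-high members, Foxo1, a transcription factor that drives Rag expression, was at 142 ± 30.3 CPM against 288 ± 80.1 CPM (−0.99, SE 0.21, adjusted p = 0.0151). The classes did not overlap, but the call was lost without either TLR9-/- library or the WT library numbered 1, with values between −1.04 and −0.81. Jun, a subunit of AP-1, was called at −0.83 (SE 0.16, adjusted p = 0.00430) with overlapping levels, and lost without the TLR9-/- library numbered 2 (−0.72, adjusted p = 0.0595). Dntt was at 3.18 ± 1.32 against 120 ± 192 CPM and Myl10, a myosin light chain gene, at 0.745 ± 1.49 against 128 ± 166 CPM, both with overlap. F13a1, Ramp1, Mpo and Cyp4f18 were called lower too, each with overlap and each lost without at least 1 library. F13a1 is a monocyte marker, the 1 called of 3 tested, with a median of −0.31 over these 3. Without the TLR9-/- library numbered 1 the value of Mpo was −1.03 against −1.77. Il7r (−0.11, SE 0.13, adjusted p = 0.874) and Rag2 (−0.15, SE 0.31, adjusted p = 0.938) were not called.

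The numbers of small resting pre-B cells were then compared between genotypes. They made up 6.94% and 3.43% of the TLR9-/- cells (exact Clopper-Pearson 95% intervals 6.47 to 7.43% and 3.06 to 3.83%) and 10.1% and 7.77% of the WT cells (9.58 to 10.7% and 7.22 to 8.34%), intervals that cover counting error only. Both WT libraries lay above both TLR9-/- libraries. The means were 5.18% ± 2.48 and 8.96% ± 1.68 (SD over 2 libraries each), which is −0.79 on the log2 scale (SE 0.44, adjusted p = 0.191 over 7 classes in edgeR's quasi-likelihood test; exact two-sided permutation p = 0.333) and did not exceed the spread between libraries. Without the TLR9-/- library numbered 1 the log2 fold change was −1.38 (adjusted p = 0.00616), with 1 library against 2, so that the spread came from the WT libraries and the lone library was assumed to vary like them. It was −0.37 without the TLR9-/- library numbered 2 (adjusted p = 0.276), −0.58 and −0.97 without the WT libraries numbered 1 and 2 (adjusted p = 0.522 and 0.475), and −0.10 with TMM scaling over the classes (adjusted p = 0.925). As a share of B lineage cells the members were 20.4% and 11.3% in TLR9-/- and 20.1% and 14.9% in WT libraries, which overlapped (−0.14, SE 0.40, adjusted p = 0.743). When every cell was thinned to 800 UMIs before the rule was applied, their shares of all cells were 5.19% and 4.17% against 7.34% and 8.60% (−0.77, adjusted p = 0.0535).

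Gene levels were compared between genotypes over the UMIs of the members summed per library. In sums of this kind fewer transcribing cells and less RNA per cell cannot be told apart. Tlr9 (ENSMUSG00000045322, chr9:106222598-106226883, plus strand), the disrupted gene, had 1 and 1 UMIs in the TLR9-/- members and 5 and 7 UMIs in the WT members, too few to enter the test. The libraries did not overlap, and the residual UMIs do not say which part of the transcript was kept. Of 7183 genes tested, 37 passed an adjusted p of 0.05 (0.515%), 20 higher (0.278%) and 17 lower (0.237%) in TLR9-/- members. Without the TLR9-/- library numbered 1 or 2 the number was 106 or 127, and without the WT library numbered 2 it was 11. Levels below are CPM after TMM scaling, and the adjusted p values come from edgeR's quasi-likelihood test over these 7183 genes.

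Lima1, which encodes an actin-binding LIM domain protein, showed the clearest difference. It was at 184 and 245 CPM in the TLR9-/- libraries and at 8.34 and 8.13 CPM in the WT libraries. The genotypes were far apart, with a log2 fold change of 4.67 (SE 0.31, adjusted p = 2.58e-05, higher in 2 of 2 TLR9-/- libraries). A UMI of Lima1 was seen in 15.6% and 30.7% of the TLR9-/- members and in 0.746% and 1.01% of the WT members, with at most 4 UMIs in a cell. Myeloid cells with Lyz2 and without Cd79a and Cd79b, the comparison for free RNA, had one in 4.21%, 5.62%, 3.70% and 5.96% of the cells, at median depths of 4345, 4360, 3100 and 3621 UMIs against 902, 1389.5, 836 and 1163 in the members. Thinned, the shares were 14.3% and 18.3% of the TLR9-/- members, 0% (exact 95% upper bound 0.610%) and 0.496% of the WT members and 0.868%, 1.06%, 0.533% and 1.06% of the myeloid cells. The shares of the WT members lay below those of the myeloid cells and are not read as expression. Whether the myeloid cells transcribe Lima1 themselves was not tested. Lima1 (ENSMUSG00000023022) lies at chr15:99778470-99875456 on the minus strand, and its RefSeq promoter entry, chr15:99820100-99820399 on the minus strand, lies inside that span. It is shown for the gene with the strongest call, with 1 E-box and 1 ETS word in capitals.
Lima1: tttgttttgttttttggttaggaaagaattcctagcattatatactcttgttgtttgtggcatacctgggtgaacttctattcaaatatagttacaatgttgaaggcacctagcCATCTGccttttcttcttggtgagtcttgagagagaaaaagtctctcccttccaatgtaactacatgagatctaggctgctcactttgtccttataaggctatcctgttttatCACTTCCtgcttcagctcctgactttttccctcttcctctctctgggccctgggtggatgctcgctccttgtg
In other B lineage classes Lima1 was at 63.3 and 64.5 against 4.44 and 5.68 unscaled CPM in cycling cells, at 20.4 and 29.2 against 1.95 and 8.40 in surrogate light chain cells and at 33.8 and 34.2 against 2.82 and 5.65 in Ighd cells, again without overlap. It overlapped between genotypes in Ms4a1 cells (9.53 and 3.62 against 2.86 and 4.18) and in cells outside the B lineage (5.65 and 5.93 against 4.51 and 6.34). The genotype difference of Lima1 in the small resting cells exceeded that in Ms4a1 cells by 3.79 on the log2 scale, which did not pass the test (adjusted p = 0.248).

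Trib2, a Tribbles pseudokinase, was at 460 and 338 CPM in TLR9-/- and at 107 and 108 CPM in WT members. The WT libraries were almost alike and both TLR9-/- libraries lay well above them (1.89, SE 0.24, adjusted p = 0.00314). Its UMIs lay in 37.2% and 42.8% of the TLR9-/- members and in 8.76% and 12.4% of the WT members, and thinned in 30.4% and 22.8% against 6.14% and 9.92%, with at most 0.108% of the thinned myeloid cells of a library. The call was lost without the WT library numbered 2, at the same fold change (1.89, adjusted p = 0.0859). Trib2 (ENSMUSG00000020601, chr12:15791727-15816922, minus strand) was higher without overlap in all 5 B lineage classes, at 108 and 134 against 5.84 and 6.30 unscaled CPM in surrogate light chain cells. Pde4c, a cAMP phosphodiesterase gene, was at 70.9 and 61.7 against 13.5 and 12.8 CPM (2.33, SE 0.32, adjusted p = 0.00685) and in cycling cells at no more than 2.37 unscaled CPM in any library. Its call was lost without the WT library numbered 2 (2.28, adjusted p = 0.0745) and without members holding other-cell UMIs (2.22, adjusted p = 0.195).

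Several genes had UMIs in the members of 1 genotype alone. Gm35082, a long noncoding RNA, had 69 and 73 UMIs in TLR9-/- members and 0 in WT members, at least 68.8-fold higher when 3 UMIs over the group are taken as the limit that a count of 0 allows. Jhy, a gene of ciliary development, had 30 and 26 UMIs against 0 (at least 27.1-fold higher), and the antisense gene BC018473 13 and 14 against 0 (at least 13.1-fold higher). Conversely, Col5a3, a collagen chain gene, had 0 UMIs in TLR9-/- and 78 and 131 UMIs in WT members (at least 47.9-fold lower), Trim12a 0 against 74 and 73 (at least 33.7-fold lower), Trim5 0 against 31 and 34 (at least 14.9-fold lower), Trim30d 0 against 30 and 14 (at least 10.1-fold lower) and Gm16867 0 against 19 and 15 (at least 7.80-fold lower). Col5a3 was also at 0 in surrogate light chain, Ms4a1 and Ighd cells of both TLR9-/- libraries. It had 0 and 1 UMIs in their cycling cells and 7 and 14 in their cells outside the B lineage. With the WT library numbered 2 left out the calls of Trim5 and Trim30d were lost (adjusted p = 0.1002 and 0.114), those of BC018473 and Gm16867 were lost without either WT library, and those of Gm35082, Jhy, Col5a3 and Trim12a held. The Trim genes encode restriction factors of the TRIM family, near copies that lie side by side, and reads that fit several of them may have been counted for none or moved between them. Hist1h2ac, 1 of many near-identical histone genes, had 1 and 0 against 22 and 21 UMIs (called, but not without either WT library; ratio 29.6 in favour of WT, exact 95% interval 5.03 to 1195, counting error only).

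Other genes were present in both genotypes at different levels. Ablim1, an actin-binding LIM protein gene, was at 40.0 and 31.8 CPM in TLR9-/- and at 122 and 185 CPM in WT members (−2.07, SE 0.29, adjusted p = 0.00779). Cyp4f18, a fatty acid hydroxylase gene, was at 38.7 and 35.8 against 118 and 143 CPM (−1.79, SE 0.26, adjusted p = 0.00872), and the noncoding Gm42031 at 228 and 159 against 639 and 680 CPM (−1.76, SE 0.26, adjusted p = 0.00872). None of these 3 overlapped between genotypes, but each call was lost without the WT library numbered 2, at −1.74, −1.66 and −1.72. Without members holding other-cell UMIs the calls of Ablim1 (−1.80, adjusted p = 0.1105) and Cyp4f18 (−2.07, adjusted p = 0.0972) were lost too, and in thinned members that of Cyp4f18 (−1.69, adjusted p = 0.0537). Chd9, a chromatin remodeller (−1.56), Mettl23, a methyltransferase (−1.26), the receptor kinase gene Epha2 (−2.03), Gfod1 (−2.48) and Trim34a (−2.96) were lower as well, and the noncoding Gm4316 was higher, at 81.2 and 101 against 15.6 and 12.8 CPM (2.65, SE 0.31, adjusted p = 0.00177). With 1 library left out in turn, the calls of Chd9, Epha2, Gfod1, Mettl23 and Trim34a were each lost at least once, and each was also lost with DESeq2 or in thinned members, without a change of direction.

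**Figure D3:**
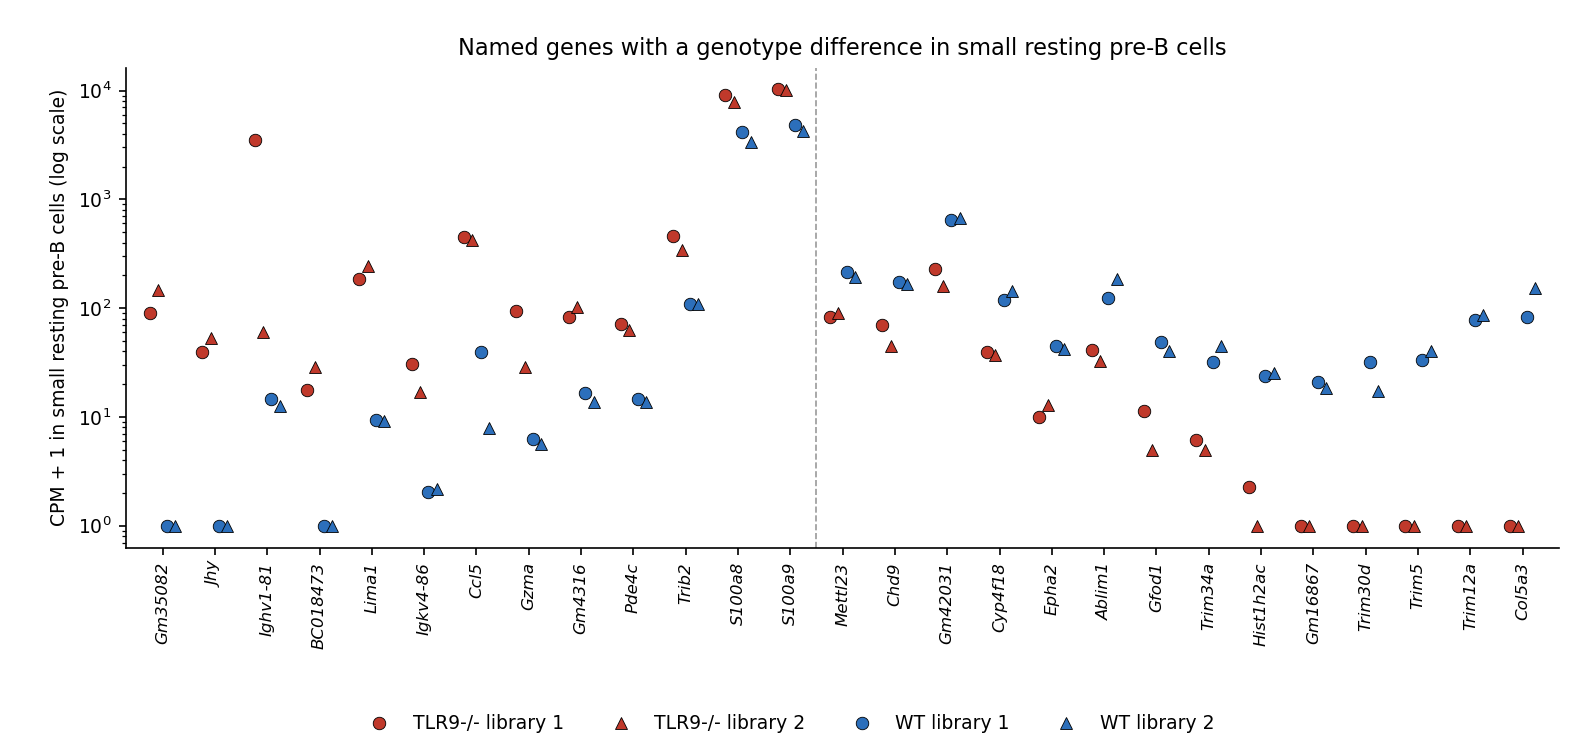
Levels in CPM after TMM scaling, plus 1, on a log axis, of the genes named for the genotype comparison in small resting pre-B cells, 1 point per library, red for TLR9-/- and blue for WT, circles for libraries numbered 1 and triangles for libraries numbered 2. The TLR9-/- and WT libraries do not overlap for any gene shown, with Lima1 at 184 and 245 against 8.34 and 8.13.

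The called genes were also looked up in the other classes of the same mice. Of the 37, 17 separated the genotypes without overlap and in the same direction in each of the surrogate light chain, cycling, Ms4a1 and Ighd classes, beside 6.1% of the 2507 tested genes that did not overlap in the small resting cells by unscaled CPM. Class by class 21, 26, 24 and 25 of the 37 did so, beside 26.5%, 42.3%, 35.4% and 35.4%, and 4, 0, 2 and 0 separated the genotypes the opposite way. In cells outside the B lineage 20 of the 37 did so, beside 41.2%, and 2 the opposite way. In 7 of the 37, namely Anxa1, Gzma, Hcst, Ifitm6, Igkv4-86, S100a8 and S100a9, no other B lineage class separated the genotypes in that direction, which was the case for 781 of the 2507 genes (31.2%). These lists were drawn up after the values were seen. The same fit in Ms4a1 cells called 7 of 8945 genes (0.0783%; 5 higher, 0.0559%, and 2 lower, 0.0224%), Gm6594, Trim12a, Mid1, Gm35082, Gm16867, Ocel1 and BC018473. Of these, Trim12a, Gm35082, Gm16867, Ocel1 and BC018473 were among the 37. The genotype difference itself differed between small resting and Ms4a1 cells, by an interaction term, in 5 of 8949 genes (0.0559%), upward in 4 (0.0447%) and downward in 1 (0.0112%), all of them immunoglobulin V genes or the killer cell genes Gzma and Ccl5.

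**Figure D4:**
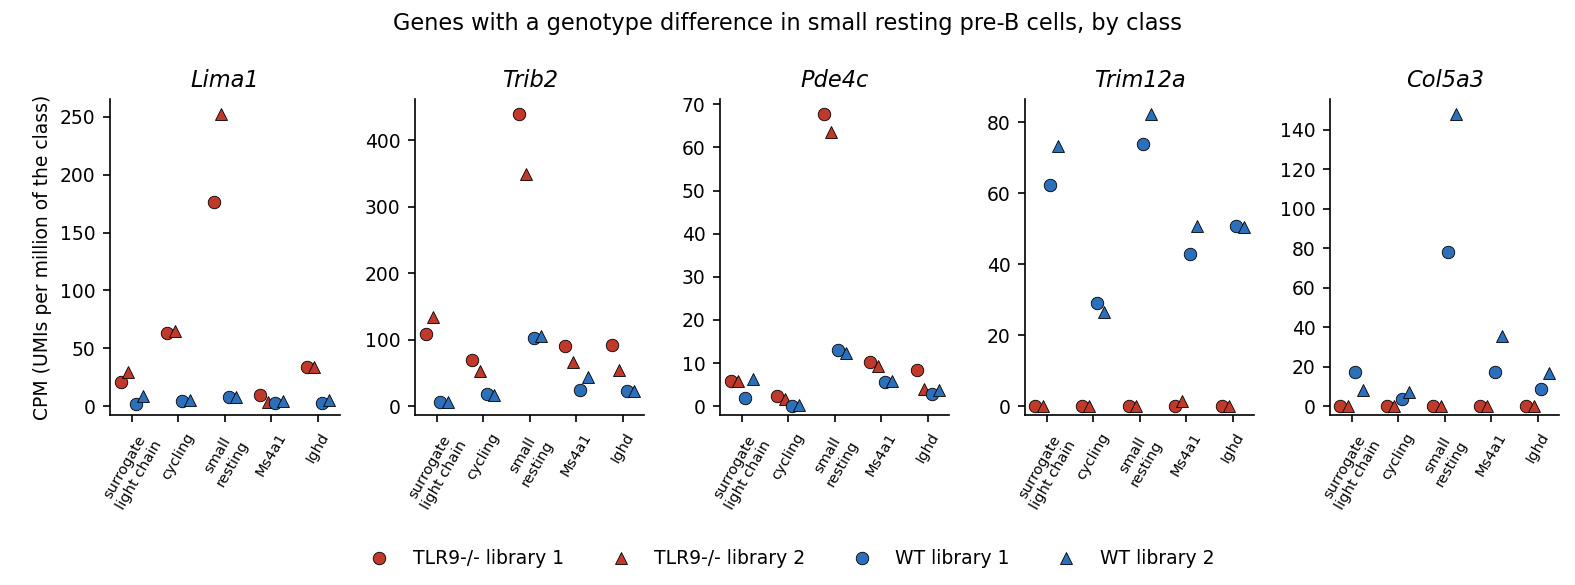
Lima1, Trib2, Pde4c, Trim12a and Col5a3 in unscaled CPM of each B lineage class, 1 point per library, red for TLR9-/- and blue for WT. Trim12a is at 0 in both TLR9-/- libraries of the small resting and surrogate light chain classes, and Trib2 is higher in both TLR9-/- libraries of every class.

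Some called genes were neighbours. When called genes no more than 5 Mb apart were joined, 16 of the 37 fell into 6 runs. The longest run in genes lay on chromosome 7 from 100675088 to 104507849 and held 5 called of 24 tested genes, namely Gm35082, which was higher, and Trim34a, Trim5, Trim12a and Trim30d, which were lower. On chromosome 8 from 70723720 to 72009626, 3 of 29 tested genes were called, Pde4c and Ocel1 higher and Cyp4f18 lower, and on chromosome 9 from 20581291 to 20815067, 2 of 6, Zfp846 and Col5a3, both lower. Ocel1 and Zfp846 are named here for their position, after their values were seen. Chromosome 7 held 8 called of 539 tested genes (1.48%), chromosome 8 held 6 of 381 (1.57%) and chromosome 13 held 4 of 278 (1.44%), beside 0.515% overall. Tlr9 lies on chromosome 9, outside the run there.

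Genes of the pathways in which these cells take part did not pass the test. Of the 203 genes tested from 15 lists of B cell, signalling and stress genes, edgeR called 0 and DESeq2 called 0, and 16 had an unadjusted p under 0.05, beside 419 of all 7183 genes. The medians of the lists lay between −0.36 and 0.42. Rag2 was at 51.6 and 35.8 CPM in TLR9-/- and 75.0 and 76.7 CPM in WT members. These did not overlap, but the difference was not called (−0.76, SE 0.27, adjusted p = 0.617). Il7r was at 406 and 348 against 693 and 410 CPM, without overlap by a narrow gap (−0.55, SE 0.28, adjusted p = 0.884), and without the WT library numbered 1 the value was −0.12. Dnajc7 (0.03, SE 0.20), Ebf1 (−0.00, SE 0.27) and Arl5c (0.26, SE 0.25) were not called either. Among 20 Toll-like receptor signalling genes tested, the median log2 fold change was −0.13 beside −0.01 over all genes. In 8 of them both TLR9-/- libraries lay below both WT libraries and in 5 above, beside 18.1% and 17.5% of all genes. Unc93b1, the chaperone that carries TLR9 to endosomes, was among those above, at 681 and 714 against 638 and 605 CPM, and Myd88, the adaptor of most Toll-like receptors, among those below, at 21.9 and 19.9 against 33.3 and 29.05 CPM (−0.57, SE 0.36, adjusted p = 0.903). Of 26 interferon-stimulated genes, 22 had a negative value and 4 a positive one, with a median of −0.36. In 9 of them both TLR9-/- libraries lay below both WT libraries and in 1 above, beside 18.1% and 17.5% of all genes. Ifi27l2a, an abundant gene of that list, was at 1533, 1457, 4246 and 1329 CPM, so that the WT library numbered 1 stood alone. Of 14 AP-1 and early response genes 10 were positive, with a median of 0.42, and 1 was higher without overlap and 0 lower, beside 17.5% and 18.1% of all genes. Tnfsf11 and Tnfrsf11b, which encode the bone-resorbing cytokine RANKL and its decoy receptor, had 0 UMIs in the members of all libraries, which allows no more than 3 UMIs in each.

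RNA of other cell types was present in the members, and the sums of the neutrophil and the T and NK cell lists were higher in both TLR9-/- libraries. The 8 neutrophil markers summed to 24704 and 23763 CPM in TLR9-/- and 10595 and 10407 CPM in WT members. All 8 were detected in every library, and 7 of the 8 were higher in both TLR9-/- libraries, beside 17.5% of all genes. S100a9, the most abundant, was at 10263 and 10109 against 4801 and 4255 CPM (1.17, SE 0.19, adjusted p = 0.02002), and S100a8 at 9097 and 7874 against 4166 and 3334 CPM (1.18, SE 0.20, adjusted p = 0.0256). Neither overlapped between genotypes. The 2 genes had a UMI in 322, 120, 246 and 580 members (43.0%, 39.2%, 22.9% and 83.9%), shares that overlapped between genotypes. The 5 members with the most held 8564 of 15019, 6937 of 9037, 5070 of 8605 and 4750 of 6531 of these UMIs. A single member held up to 2181. Members that held 2 or more UMIs of the neutrophil, monocyte, erythroid, T and NK or plasma cell markers were 62.3%, 61.1%, 53.7% and 89.3% of the members. Without them the values were −0.017 for S100a9 and 0.34 for S100a8, and neither was called. That filter removes members by the UMIs of these 2 genes themselves, so that it cannot test their difference. It also counts the plasma cell marker Mzb1, with 596, 294, 634 and 617 UMIs in the members. Without the members holding at least 10 UMIs of Jchain and Igha, Mzb1 kept 525, 294, 557 and 574 UMIs. In surrogate light chain cells Mzb1 was at 1790, 1913, 1925 and 1893 CPM. How many members the filter removed for Mzb1 alone was not counted. Without members of more than 3 times the median UMIs the values were 0.42 and 0.37. Both calls were also lost without either WT library, at values between 1.02 and 1.35. In the neighbouring classes the summed neutrophil markers overlapped between genotypes. They were at 2707 and 28136 CPM in TLR9-/- and 19619 and 6293 CPM in WT surrogate light chain cells. In Ms4a1 cells they were at 29081 and 45078 against 8218 and 56727 CPM.

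The 8 T and NK cell markers summed to 160 and 144 against 44.9 and 37.2 CPM, again without overlap. Trbc1 was at 0 in the WT library numbered 1 and Klrb1c and Cd3e in that numbered 2. The UMIs of this list lay in 21, 8, 11 and 12 members, those of Nkg7 in 17, 5, 9 and 10. In each library 5 members held 78 of 130, 63 of 70, 38 of 45 and 26 of 33 UMIs of the list. Nkg7, a granule gene of killer cells and the most abundant of that list, rose from 27.1 and 16.3 to 76.1 and 71.6 CPM (1.75, SE 0.31, adjusted p = 0.0267), which was 0.98 and not called without the deepest members and 1.44 and not called without the WT library numbered 2, nor was it called by DESeq2 (adjusted p = 0.1101). Ccl5, a chemokine of T and NK cells, was called at 452 and 420 against 38.6 and 6.97 CPM (4.22, SE 0.45, adjusted p = 0.000944), but its UMIs lay in 20, 3, 8 and 6 members, and the 211 UMIs of the TLR9-/- library numbered 2 came from 3 cells. Gzma, a killer cell protease, had 72 and 14 against 5 and 4 UMIs, in 3, 1, 2 and 4 members (3.64, SE 0.59, adjusted p = 0.0205). Its call was lost without the TLR9-/- library numbered 1 (2.47) or either WT library. Such calls rest on a few cells. Ighv1-81 was at 3516 and 59.7 against 13.5 and 11.6 CPM (7.13, SE 1.33, adjusted p = 0.0355). Its value was 1.94 without the plasma-like members and 2.24 without the TLR9-/- library numbered 1. The call of Ighv1-81 was lost in 3 of the 13 settings run for it. Igkv4-86 had 23 and 8 against 1 and 1 UMIs (ratio 22.5, exact 95% interval 5.73 to 194, counting error only), and its call was lost with DESeq2 (adjusted p = 0.133), in thinned members (adjusted p = 0.0505) and without either WT library (adjusted p = 0.284 and 0.229).

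The remaining lists did not separate the genotypes upward. Plasmacytoid dendritic cell markers summed to 314 and 312 against 453 and 454 CPM, lower in TLR9-/- members without overlap. Irf8 and Bst2 of this list are also on the lists of B lineage transcription factors and interferon-stimulated genes. Whether this sum came from other cells was not tested. Erythroid markers summed to 4195, 2155, 15054 and 3025 CPM, highest in the WT library numbered 1, monocyte markers to 1283, 575, 471 and 808 CPM, plasma cell markers to 10472, 751, 2419 and 5231 CPM, and mature B cell markers to 182, 203, 164 and 195 CPM. All 4 overlapped between genotypes. The 6 erythroid genes tested all had negative values, with a median of −1.19 beside −0.01 over all genes, 5 with an unadjusted p under 0.05 (419 of all 7183 genes) and 3 lower without overlap (18.1% of all genes), but edgeR called 0 of them. Gm42418, a transcript that overlaps ribosomal RNA genes and was singled out after its values were seen, was at 3782 and 17457 against 4245 and 24077 CPM, high in both libraries numbered 2. The part of this RNA in the differences between genotypes was not tested, beyond the values given without the members or genes concerned. Without members holding other-cell UMIs, a filter that counts Mzb1 too, 10 genes were called, 7 of them among the 37.

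**Figure D5:**
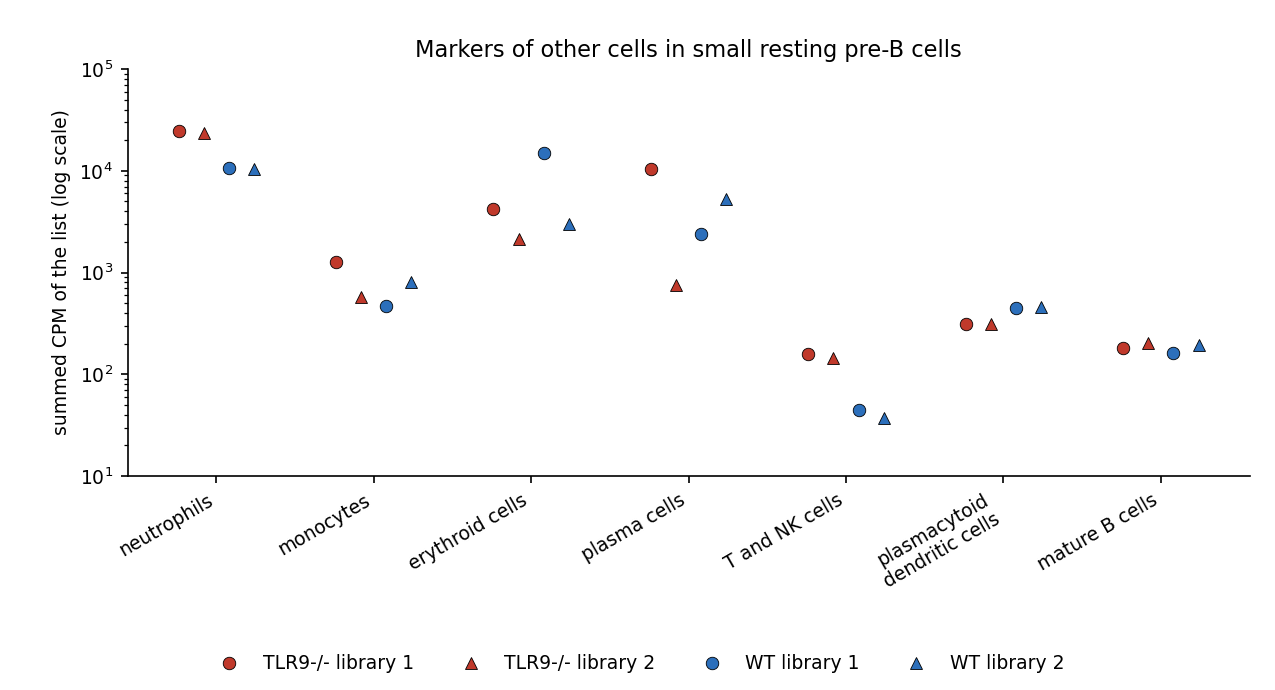
Summed markers of 7 other cell types in the small resting pre-B cells, in unscaled CPM of the members on a log axis, 1 point per library, red for TLR9-/- and blue for WT. Neutrophil markers (24704 and 23763 against 10595 and 10407) and T and NK cell markers (160 and 144 against 44.9 and 37.2) are higher in both TLR9-/- libraries, and plasmacytoid dendritic cell markers are lower.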

How the data were processed

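The authors deposited 1 filtered matrix of UMI counts per mouse, made with Cell Ranger 3.0.1 per the file headers and the mm10 genome per the labels; these whole-number counts were used as deposited. STAR and Seurat 2.3.4 also stand in the submitters' processing notes. The members and gene lists were chosen with earlier results of these data known. UMIs were summed per library and class. edgeR 4.0.16 (TMM scaling, filterByExpr, quasi-likelihood test, Benjamini-Hochberg adjustment, threshold 0.05) compared genotypes over 2 libraries each, without a block, and classes with the library as a block; DESeq2 1.42.0 was an alternative. Named genes were, among called genes without overlap between genotypes, the 10 with the largest fold change and the 5 most abundant in each direction, the 10 of largest fold change of at least 50 CPM in the other comparisons, called and abundant list members, and genes set for their role. Nothing says whether a library number marks an experiment, so that the main genotype fit had no such block. The 2 mice of a genotype came from different experiments. The p-values of the genotype comparison therefore measure the spread between mice and experiments together. Depth, 487272 to 1002391 UMIs per library over the members, limits genes of low level. On simulated data of the genotype comparison (7203 genes) 62% of 2-fold changes were recovered, and 98.5% of 4-fold changes (7153 genes). The changed genes were drawn from the better counted genes only, and all genes were given a single fixed dispersion. The recovery of genes with few UMIs or a larger spread was not tested. Promoters come from RefSeq on GRCm38.p6 and matched 28 of the 37 called genes.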

Additional observations from a re-analysis of the deposited data

Results flagged for a closer look

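For 5 of 8949 genes (0.0559%) the genotype difference in small resting pre-B cells differed from that in Ms4a1 cells, by an interaction term in edgeR's quasi-likelihood test. Gzma differed by 8.97 on the log2 scale (adjusted p = 0.000606), with 72 and 14 UMIs in TLR9-/- and 5 and 4 in WT small resting cells, and 2 and 0 against 99 and 23 in Ms4a1 cells. These UMIs lay in 3, 1, 2 and 4 small resting cells, and the 99 in Ms4a1 cells came from 1 cell. Without the deepest members the TLR9-/- library numbered 2 held 0. Ighv10-3 differed by 7.48 and Igkv10-94 by −3.90 (each adjusted p = 0.000606), the former not called without the WT library numbered 1 (5.02) and the latter not without the TLR9-/- library numbered 1 (−2.13). Ighv1-81 differed by 7.29 (adjusted p = 0.00494), and by 2.53 without the plasma-like members (adjusted p = 0.415), 2.60 without the deepest members (adjusted p = 0.289) and 4.20 without the TLR9-/- library numbered 1 (adjusted p = 0.0506). Ccl5 differed by 6.59 (adjusted p = 0.00720), with its UMIs in 20, 3, 8 and 6 small resting cells. Leaving out a library gave between 8 and 54 such genes.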

How the results depend on the processing

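Of the 28 genes named for the genotype comparison, 7 (Lima1, Gm35082, Trim12a, Col5a3, Gm4316, Ccl5 and Jhy) kept their call in every setting run for them. These were 15 settings, or 14 for Ccl5 and Jhy, and the UMIs of Ccl5 lay in only 20, 3, 8 and 6 members. S100a9 changed sign without members holding other-cell UMIs (−0.017), but that filter counts its own UMIs and cannot test it. The 37 genotype calls became 155 without a filter on low counts, 57 without immunoglobulin genes (59.6% higher, against 54.1%), 10 without members holding other-cell UMIs and 28 with DESeq2, 22 of these shared, and ranged from 11 to 127 with 1 library left out. With the library number as a replicate block there were 98, including all 37; the numbers correlated at 0.150 over only 2 pairs and are not known to pair the mice. Without the replicate block the comparison with surrogate light chain cells gave 1201 calls in place of 1966, and with 1 library left out 1307 to 1856. A kappa limit of 5 UMIs gave 58 calls in place of 24. The 5 interaction calls became 90 without a filter, 12 without plasma-like members, 14 without deep members, and 8 to 54 with 1 library left out. The share of members (−0.79) ranged from −1.38 to −0.37 with 1 library left out, and was −0.10 with TMM scaling. The plasma-like, deep-member and interaction alternatives were chosen after seeing the data. The causes of these shifts were not tested.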
